A study of Homo sapiens with 33 samples.

Results

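The 7 Sprouty and SPRED genes, SPRY1, SPRY2, SPRY3, SPRY4, SPRED1, SPRED2 and SPRED3, were followed in head and neck squamous cell carcinoma (HNSCC) cell lines treated with cetuximab, an antibody that blocks the epidermal growth factor receptor EGFR. The members were taken by gene symbol, and all 7 were found among the 56470 symbols of the count table. Bulk RNA-seq was available for the established lines UM-SCC-1, UM-SCC-6 (here SCC1 and SCC6) and SCC25, which the study describes as sensitive to the drug. Each line was given PBS (untreated controls) or 100 nM cetuximab (CTX), with PBS libraries from day 0 to day 5 and CTX libraries from day 1 to day 5, 33 libraries in all. There was 1 library per line, treatment and day, except that 2 CTX libraries of SCC6 are both labelled day 2 (2a and 2b here) and none is labelled day 1. Per the labels, cetuximab or PBS was renewed daily from the day after seeding, SCC1 and SCC25 grew in medium with hydrocortisone, and SCC6 grew in high-glucose medium with non-essential amino acids, while the study's methods give the same medium for all 3 lines. The comparisons below use the 5 PBS and 5 CTX libraries of days 1 to 5 of each line, so days stand in for replicates. Nothing states that the days came from separate cultures, and p-values measure the spread between these libraries only.

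Sprouty proteins are feedback inhibitors of receptor tyrosine kinases. The RAS to ERK cascade can raise their transcription, and the proteins in turn dampen signalling between the receptor and RAF, through partners such as GRB2. SPRY2 also binds the ubiquitin ligase CBL. SPRED proteins share the cysteine-rich carboxyl-terminal domain of the Sprouty proteins and carry an EVH1 domain at the amino terminus, with which SPRED1 and SPRED2 bring neurofibromin (NF1), a RAS inactivator, to the membrane. In squamous epithelium, EGFR is a main input into this cascade.

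The genes lie on separate chromosomes, and all positions are given on GRCh37 with GENCODE annotation. SPRY2 lies at chr13:80910111-80915261 on the minus strand, and its coding sequence of 315 codons sits in 1 of the 2 exons of the canonical transcript. SPRY4 lies at chr5:141689992-141706020 on the minus strand, again with the whole coding sequence, here 299 codons, in 1 of 2 exons. SPRY1 (chr4:124317950-124324915, plus strand) and SPRY3 (chrX:154842233-155012121, plus strand) also have a single coding exon. SPRY3, as annotated here, lies partly in the pseudoautosomal region of the long arm and overlaps TMLHE on the other strand. SPRED1 (chr15:38545037-38649450, plus strand), SPRED2 (chr2:65537985-65659771, minus strand) and SPRED3 (chr19:38879061-38890227, plus strand) are split over 7, 6 and 5 coding exons. The sequences just before the transcript starts of SPRY2 and SPRY4 are shown because these were the members that fell under cetuximab in each of the 3 lines. They are the 180 bases before the start of the canonical transcript, chr13:80915262-80915441 and chr5:141704587-141704766 of GRCh37, both read 5′ to 3′ on the minus strand. Capitals mark GGAA or its complement TTCC, the core letters bound by ETS factors, and the 10-letter run CCCATTCATA in SPRY4.
SPRY2: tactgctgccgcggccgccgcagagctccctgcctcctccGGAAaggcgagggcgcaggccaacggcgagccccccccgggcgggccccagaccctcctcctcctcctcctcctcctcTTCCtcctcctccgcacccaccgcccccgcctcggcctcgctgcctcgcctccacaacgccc
SPRY4: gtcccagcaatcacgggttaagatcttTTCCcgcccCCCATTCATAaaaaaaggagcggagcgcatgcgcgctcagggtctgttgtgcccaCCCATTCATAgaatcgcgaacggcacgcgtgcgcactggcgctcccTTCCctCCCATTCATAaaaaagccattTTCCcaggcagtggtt

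The SPRY2 window was 76.1% G and C and the SPRY4 window 55.6%, against a median of 59.4% over 35116 windows of the same length before RefSeq transcript starts. GGAA on either strand occurred at 2 positions before SPRY2 and 3 before SPRY4, where the median over all windows was 2, and 85.5% of windows held it. The longer ETS site CCGGAAG (in 7.36% of windows), the AP-1 site TGANTCA (4.92%), the cyclic AMP response element TGACGTCA (1.51%), the EGR site GCGTGGGCG (0.567%) and the CArG box (0.874%) were found on neither strand in the windows of any of the 7 members, which says only that these letters are not there. The half-site TGACG of the cyclic AMP response element (17.3% of windows) was found before SPRY3 only, at 1 position, -105 from the start. The run CCCATTCATA was picked out as the longest one that occurs 3 times in the SPRY4 window, so its count there follows from that choice. How often other runs of this length occur was not tested. The run CCCATTCATA occurred in 0.0256% of all windows. It was not found before the other members.

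Total counts per library ranged from 28508758 to 80727478, with a median of 43002133, and the highest totals belonged to CTX libraries of SCC6. Levels are in CPM, the usual count scaled to a common library size, here with TMM factors. All 6 squamous epithelial markers (KRT5, KRT14, KRT17, TP63, CDH1 and EPCAM) were on average above 1 CPM in every line and treatment. KRT5 and KRT14 were low in SCC6, with PBS means of 2.38 and 3.95 CPM, against 5362 and 3377 CPM in SCC25. The summed level of 6 immune and endothelial markers stayed at or below 2.99 CPM. CD3E was at 0 in every SCC25 library of days 1 to 5, and LYZ in every CTX library of SCC1. The summed level of 7 fibroblast markers was higher with CTX in each line, from 21.0 to 32.8 CPM with PBS against 50.1 to 146 CPM with CTX in SCC1, 2.93 to 5.05 against 9.05 to 115 CPM in SCC6, and 145 to 196 against 252 to 406 CPM in SCC25. Means above 1 CPM were reached by 2, 1 and 6 of these 7 with PBS in SCC1, SCC6 and SCC25, and by 2, 3 and 5 with CTX. Of these markers, 4 of 4 tested rose in SCC1, 2 of 2 in SCC6 and 4 of 7 in SCC25, and none of the 7 was at 0 in every library of a group. Their part in the results below was not tested. The flow cells named in the labels were not balanced between treatments, since the SCC1 CTX libraries and 4 of its 5 PBS libraries of days 1 to 5 ran on different flow cells. Values within a flow cell or adjusted for it are given below for the 7 members only, where they bear on a result.

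Without drug, the family was led by different members in different lines. Levels are compared between genes as CPM per kb of the canonical transcript, a scale that assumes that transcript in every line. SPRY4 was the highest in SCC1, at 18.9 ± 5.67 CPM per kb (SD, n = 5), followed by SPRED2 at 12.0 ± 1.14. In SCC6, SPRY2 was the highest at 20.4 ± 4.01 CPM per kb, again with SPRED2 next at 10.8 ± 0.657. In SCC25, SPRY4 at 8.96 ± 0.427, SPRED2 at 7.34 ± 0.754 and SPRY2 at 7.00 ± 0.520 CPM per kb were close together, and the SDs of SPRED2 and SPRY2 overlapped. SPRED1 ranked just behind or ahead of the lower of SPRY2 and SPRY4, from 4.75 to 6.66 CPM per kb. SPRY1, SPRY3 and SPRED3 were the 3 lowest in each line, from 0.102 to 1.30 CPM per kb.

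Between lines, nearly all members differed without drug, as did most genes. The PBS libraries of SCC25 shared a flow cell with no other line, and those of SCC1 and SCC6 ran mostly on different ones. Line and flow cell therefore largely cannot be told apart, and untreated levels were not adjusted for the flow cell. All 7 members differed between SCC25 and SCC1, where 68.4% of genes tested were called (adjusted p under 0.05, edgeR), and 6 of 7 differed in each of the other pairs, SCC6 and SCC1 (69.1% of genes) and SCC25 and SCC6 (72.1% of genes). SPRY2 was highest in SCC6, at a mean of 46.7 CPM against 16.0 in SCC25 and 11.2 in SCC1, which is 4.21-fold higher in SCC6 than in SCC1 (log2 2.07 ± 0.15 SE, adjusted p = 1.56e-09, edgeR). SPRY4 had a different order, with 92.6 CPM in SCC1, 43.95 in SCC25 and 30.6 in SCC6, and SCC6 was lower than SCC1 by a log2 difference of -1.59 ± 0.16 (adjusted p = 1.33e-07, edgeR). SPRY1 was highest in SCC6 (2.93 CPM) and lowest in SCC1 (0.573 CPM), while SPRY3 ran the other way, with 3.42 CPM in SCC1 and 0.907 CPM in SCC6. SPRED3 showed the widest range, from 6.22 CPM in SCC1 through 2.19 in SCC6 to 0.810 in SCC25, a log2 difference of -2.93 ± 0.28 between SCC25 and SCC1 (adjusted p = 4.64e-08, edgeR). SPRED1 and SPRED2 varied least, from 34.5 to 48.4 CPM and from 33.1 to 54.2 CPM. The neighbours that did not differ beyond their spread were SPRED2 in SCC6 and SCC1 (log2 difference -0.14 ± 0.08, adjusted p = 0.153, edgeR) and SPRED1 in SCC25 and SCC6 (-0.06 ± 0.09, adjusted p = 0.530, edgeR).

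**Figure D1:**
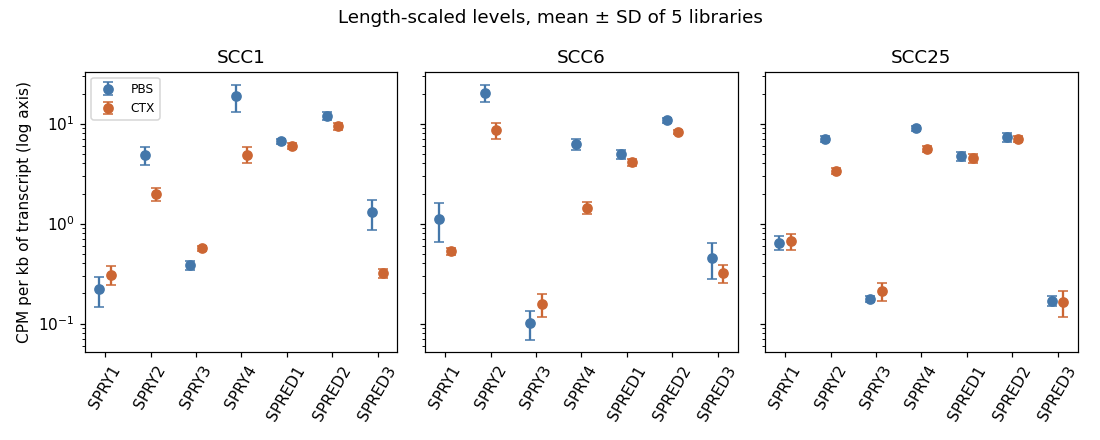
Mean level of each member in CPM per kb of transcript (log axis) for SCC1, SCC6 and SCC25 with PBS (blue) or cetuximab (orange), with bars for the SD of 5 libraries. SPRY4 leads in SCC1 and SCC25 and SPRY2 in SCC6 with PBS, and SPRED2 is the highest in SCC1 and SCC25 with cetuximab.

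SPRY2 and SPRY4 were lower in every CTX library than in every PBS library of days 1 to 5, in all 3 lines. SPRY4, an inhibitor of growth factor signalling to ERK, fell most in SCC6 and SCC1 and least in SCC25. In SCC1, SPRY4 measured 61.2, 113, 123, 100.3 and 65.8 CPM with PBS on days 1 to 5 and 19.4, 25.6, 30.8, 23.4 and 21.2 CPM with CTX. In SCC6, it measured 33.9, 29.0, 35.5, 27.3 and 27.4 CPM with PBS, and 7.72 and 5.61 CPM in CTX libraries 2a and 2b followed by 8.11, 7.15 and 6.80 CPM on days 3 to 5. In SCC25, the values were 44.5, 45.3, 46.3, 41.2 and 42.4 CPM with PBS and 27.1, 26.5, 25.8, 30.8 and 27.7 CPM with CTX. The groups do not overlap in any line, and the PBS values of SCC1 rise and fall again over the days while those of SCC25 are nearly level. The log2 fold change of SPRY4 was -1.93 ± 0.19 (SE) in SCC1 (adjusted p = 9.30e-06), -2.13 ± 0.13 in SCC6 (adjusted p = 2.97e-06) and -0.68 ± 0.06 in SCC25 (adjusted p = 6.42e-05), all by edgeR. In bulk RNA, fewer cells with the transcript and less transcript per cell cannot be told apart.

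SPRY2, the member best known for binding CBL and GRB2, fell in all 3 lines. With PBS in SCC1 it measured 7.89, 11.01, 14.46, 11.2 and 11.3 CPM on days 1 to 5, and with CTX 4.20, 3.86, 5.50, 4.81 and 4.05 CPM. In SCC6, the PBS values were 49.9, 51.5, 56.7, 42.1 and 33.3 CPM and the CTX values 23.0 (2a), 16.8 (2b), 24.1, 17.7 and 16.9 CPM. SCC25 gave 14.99, 16.0, 17.8, 16.3 and 14.8 CPM with PBS and 7.33, 7.94, 7.13, 8.51 and 7.93 CPM with CTX. Each CTX value lies below the lowest PBS value of its line. The CTX values of SCC6 lay in the range of the PBS values of SCC25 or above it. The log2 fold change was -1.31 ± 0.15 in SCC1 (adjusted p = 2.12e-05), -1.27 ± 0.16 in SCC6 (adjusted p = 0.000216) and -1.05 ± 0.08 in SCC25 (adjusted p = 2.32e-05), by edgeR.

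Among genes tested in all 3 lines, 3.91% were called lower in each of them, as SPRY2 and SPRY4 were. In SCC1, 44.8% of genes were called, 22.1% lower and 22.7% higher, and 5 of 7 members were called, 4 lower and 1 higher. In SCC6, 30.1% of genes were called, 14.6% lower, and 5 of 7 members were called, all lower. In SCC25, 18.3% of genes were called, 9.5% lower, and 2 of 7 members were called, both lower. All CTX libraries lay below all PBS libraries for 16% of genes in SCC1, 8.32% in SCC6 and 7.88% in SCC25, and for 4, 3 and 2 members. All lay above for 15.3% of genes in SCC1, and for 1 member there. Of all log2 fold changes, 1.13% were lower than that of SPRY4 in SCC1, 0.707% in SCC6 and 2.05% in SCC25, and for SPRY2 the shares were 2.31%, 2.21% and 0.618%. In SCC25 the split of calls in the 2 directions depends on the scaling, with 1681 higher and 1815 lower by TMM factors but 2261 and 1217 with libraries scaled by their totals alone. The median log2 fold change of all genes moved to 0.06 there, and both members kept their calls. With the day as a block, which pairs the PBS and CTX libraries collected on a day, 7961 genes were called in SCC6 in place of 5238, and 7 of 7 members in SCC1.

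**Figure D2:**
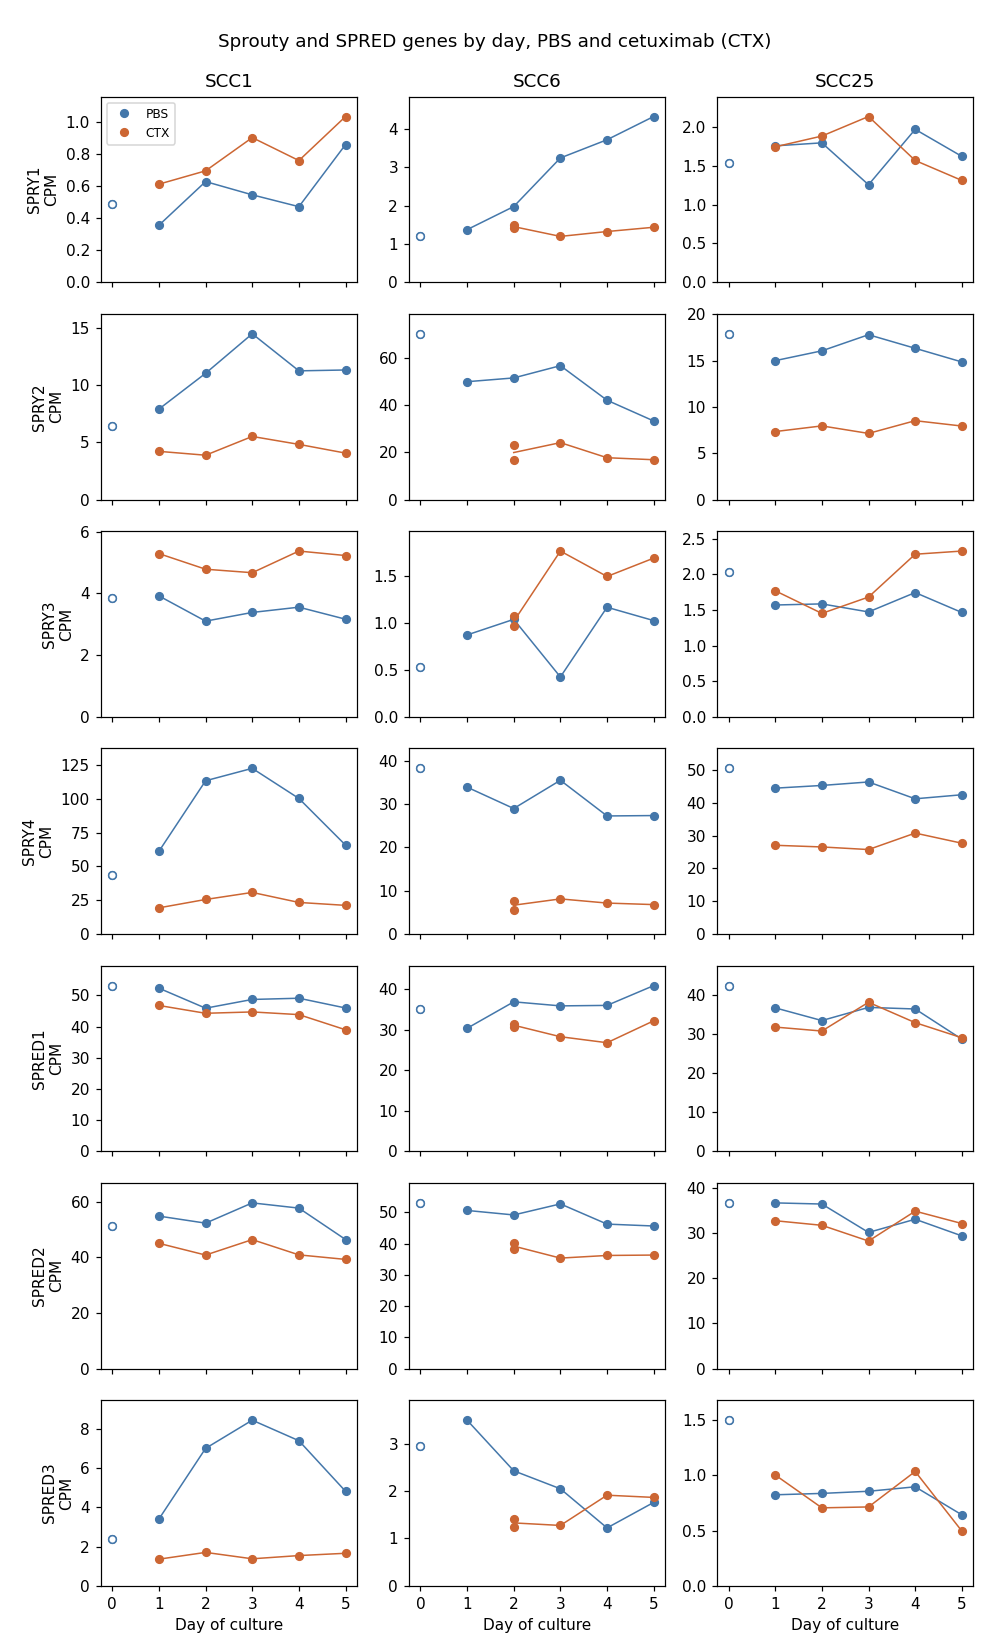
Level in CPM (linear axes from 0, separate for each panel) against the day of culture for the 7 members (rows) and 3 lines (columns), with 1 point per library, PBS in blue and cetuximab in orange. Lines join the daily means of days 1 to 5, open points are PBS at day 0, and SPRY2 and SPRY4 with cetuximab lie below PBS in every line.

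**Figure D3:**
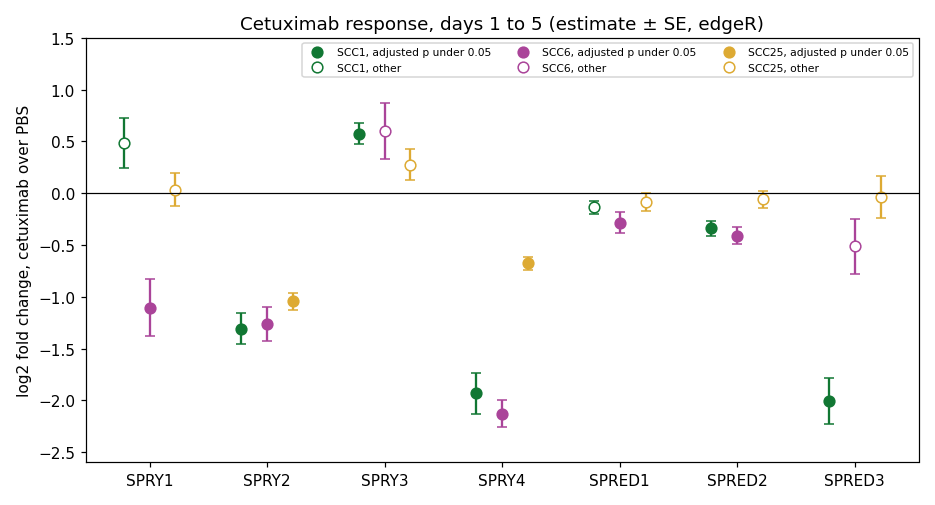
Log2 fold change of each member, cetuximab over PBS, in SCC1 (green), SCC6 (purple) and SCC25 (yellow), with bars for the SE. Filled points have an adjusted p under 0.05, and SPRY2 and SPRY4 are filled in all 3 lines.

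Among the SPRED genes, SPRED3 changed in SCC1 and SPRED2 in SCC1 and SCC6. SPRED3 measured 3.41, 7.01, 8.45, 7.40 and 4.82 CPM with PBS on days 1 to 5 in SCC1 and 1.36, 1.71, 1.38, 1.55 and 1.66 CPM with CTX. The PBS values follow the same rise and fall as SPRY4 in that line, while the CTX values are flat and lie below all of them. Its log2 fold change was -2.01 ± 0.22 (adjusted p = 1.73e-05, edgeR), the lowest of the 7 members in SCC1. In SCC6 the groups overlapped, with 1.22 to 3.49 CPM with PBS and 1.24 to 1.91 CPM with CTX, and the log2 fold change was -0.51 ± 0.27 (adjusted p = 0.168, edgeR). In SCC25, where SPRED3 had 23 to 48 counts per library on days 1 to 5, it was -0.04 ± 0.21 (adjusted p = 0.923, edgeR).

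SPRED2, which recruits NF1 like SPRED1, fell by less. In SCC1 it measured 54.8, 52.3, 59.6, 57.7 and 46.4 CPM with PBS and 45.0, 40.8, 46.4, 40.9 and 39.3 CPM with CTX. The highest CTX value, of day 3, and the lowest PBS value, of day 5, nearly meet. The log2 fold change was -0.34 ± 0.07 (adjusted p = 0.00214, edgeR), but adjustment for the flow cell gave -0.11 ± 0.10 (adjusted p = 0.450, edgeR). In SCC6 it measured 50.6, 49.2, 52.7, 46.3 and 45.6 CPM with PBS and 38.3, 40.2, 35.4, 36.2 and 36.3 CPM with CTX, without overlap, and the log2 fold change was -0.41 ± 0.08 (adjusted p = 0.00359, edgeR). The value within the one SCC6 flow cell that held both treatments, 4 PBS and 3 CTX libraries, was -0.35. On that flow cell, the number after its name in the labels differed between all PBS and all CTX libraries. That number and the treatment cannot be told apart there. In SCC25, SPRED2 overlapped between treatments, at 29.4 to 36.7 CPM with PBS and 28.2 to 34.9 CPM with CTX (log2 fold change -0.06 ± 0.08, adjusted p = 0.662, edgeR).

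SPRED1 overlapped between treatments in every line. It was called in SCC6 only, with 30.3 to 40.9 CPM for PBS and 26.8 to 32.2 CPM for CTX and a log2 fold change of -0.28 ± 0.10 (adjusted p = 0.0485, edgeR). That call was lost in 8 of the 10 fits that left out 1 library, namely PBS of days 2, 3, 4 and 5 and CTX of 2a, 3, 4 and 5, with adjusted p up to 0.112. In SCC1, where PBS gave 45.9 to 52.3 CPM and CTX 39.0 to 46.8 CPM, the log2 fold change of SPRED1 was -0.14 ± 0.06 (adjusted p = 0.0801, edgeR). With the day as a block, the SCC1 value was -0.14 ± 0.05 (adjusted p = 0.0354, edgeR). In SCC25 the ranges were 28.8 to 36.9 and 29.2 to 38.3 CPM, and the log2 fold change was -0.09 ± 0.09 (adjusted p = 0.531, edgeR).

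SPRY1 was lower with CTX than with PBS in SCC6. There it measured 1.37, 1.98, 3.24, 3.72 and 4.33 CPM with PBS on days 1 to 5 and 1.48 (2a), 1.42 (2b), 1.20, 1.32 and 1.43 CPM with CTX. The PBS values climb from day to day and the CTX values stay near the PBS value of day 1, so the groups overlap by that library alone. PBS at day 0 measured 1.21 CPM, so the CTX values did not fall below the starting level by more than a little. The log2 fold change was -1.11 ± 0.28 (adjusted p = 0.0107, edgeR), and within the shared flow cell it was -1.17. That value sets PBS of days 2 to 5 against CTX of 2a, 2b and day 3, so its days are not matched. Against PBS of the same day, the log2 ratios of these CTX libraries were -0.39, -0.45 and -1.37. In SCC1, with 14 to 43 counts per library on days 1 to 5, SPRY1 was at 0.356 to 0.861 CPM with PBS and 0.613 to 1.04 CPM with CTX, and the log2 fold change of 0.48 ± 0.24 did not pass the test (adjusted p = 0.120, edgeR). It passed with the day as a block, at 0.51 ± 0.18 (adjusted p = 0.0466, edgeR), and turned to -0.09 ± 0.34 (adjusted p = 0.877, edgeR) when the fit held the flow cell. In SCC25, SPRY1 was at 1.26 to 1.97 CPM with PBS and 1.31 to 2.14 CPM with CTX, with a log2 fold change of 0.03 ± 0.16 (adjusted p = 0.915, edgeR).

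SPRY3, a Sprouty gene of the X chromosome, rose in SCC1. The values were 3.92, 3.10, 3.38, 3.55 and 3.16 CPM with PBS and 5.29, 4.78, 4.67, 5.37 and 5.23 CPM with CTX. Every CTX library was above every PBS library, with a log2 fold change of 0.58 ± 0.10 (adjusted p = 0.000540, edgeR). The difference was 0.66 between the 1 PBS library and the 5 CTX libraries that shared a flow cell. In SCC6 it measured 0.425 to 1.17 CPM with PBS and 0.965 to 1.77 CPM with CTX, and in SCC25 1.46 to 1.74 and 1.45 to 2.33 CPM. The log2 fold changes there were 0.60 ± 0.27 (adjusted p = 0.112, edgeR) and 0.27 ± 0.15 (adjusted p = 0.216, edgeR), and the groups overlapped in both lines. SPRY3 in SCC6 rested on 11 to 118 counts per library.

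The response differed between lines for 4 of the 7 members, where 26.1% of genes differed in a test over the 3 lines. SPRY4 differed with an adjusted p of 6.41e-06 and SPRED3 with 0.000128 (edgeR). SPRY1 followed with 0.00212 and SPRED2 with 0.0343 (edgeR), while SPRY2, SPRY3 and SPRED1 gave 0.525, 0.522 and 0.452. For SPRY4 the pair tests placed SCC25 apart, with a log2 difference of response of 1.27 ± 0.21 against SCC1 (adjusted p = 9.79e-05) and 1.44 ± 0.21 against SCC6 (adjusted p = 1.56e-05, edgeR). Adjusted for the flow cell, the SPRY4 difference between SCC25 and SCC1 was 0.74 ± 0.29 (adjusted p = 0.171, edgeR). Its responses in SCC6 and SCC1 differed by -0.17 ± 0.21 (adjusted p = 0.642, edgeR). For SPRED3 it was SCC1 that stood apart, by 1.53 ± 0.33 from SCC6 (adjusted p = 0.00123) and by 1.99 ± 0.35 from SCC25 (adjusted p = 0.000251, edgeR). For SPRY1 it was SCC6, by -1.57 ± 0.35 from SCC1 (adjusted p = 0.00141, edgeR), and SCC25 exceeded SCC6 by 1.13 ± 0.32 (adjusted p = 0.0147, edgeR). Adjusted for the flow cell, the differences between SCC6 and SCC1 were 1.15 ± 0.41 for SPRED3 (adjusted p = 0.0768) and -1.18 ± 0.43 for SPRY1 (adjusted p = 0.0799, edgeR). For SPRED2, SCC25 against SCC6 passed at 0.34 ± 0.11 (adjusted p = 0.0296, edgeR), but not when adjusted for the flow cell (0.31 ± 0.13, adjusted p = 0.141) or without a filter (0.30 ± 0.12, adjusted p = 0.135). Its difference between SCC25 and SCC1 was 0.30 ± 0.11 (adjusted p = 0.0928, edgeR), and DESeq2 called it at 0.31 ± 0.11 (adjusted p = 0.0472).

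The SPRY2 responses of the lines differed by 0.07 ± 0.20 between SCC6 and SCC1, by 0.28 ± 0.20 between SCC25 and SCC1 and by 0.21 ± 0.20 between SCC25 and SCC6, none of which passed the test. The pair tests called 19.3% of genes for SCC6 and SCC1, 8.52% for SCC25 and SCC1 and 17.5% for SCC25 and SCC6. They called 2, 2 and 3 of the 7 members. With day within line as a block, 9000 genes differed over the lines in place of 5586, and 6675, 2997 and 7207 in the pairs in place of 4128, 1824 and 3750. With this block SPRED1 also differed over the lines (adjusted p = 0.0341, edgeR), and in pairs SPRED1 differed between SCC25 and SCC6 (0.25 ± 0.08, adjusted p = 0.0180) and SPRED2 between SCC25 and SCC1 (0.30 ± 0.09, adjusted p = 0.0273, edgeR).

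In tests of a straight slope over days 1 to 5, SPRY1 and SPRED3 were called in SCC6, and no member in the other lines. These slopes were not adjusted for the flow cell. In SCC6, PBS of day 1 ran on another flow cell than PBS of days 2 to 5. CTX of days 4 and 5 ran on another one than CTX of days 2 and 3. Day and flow cell therefore partly cannot be told apart there. SPRY1, with the climbing PBS values given above, had a slope of 0.41 ± 0.08 log2 units per day with PBS (adjusted p = 0.00643, edgeR) and -0.01 ± 0.09 with CTX, and the slopes differed by -0.42 ± 0.12 (adjusted p = 0.0225, edgeR). SPRED3 went the other way. With PBS in SCC6 it fell from 3.49 CPM on day 1 through 2.43 and 2.05 to 1.22 and 1.76 CPM, a slope of -0.30 ± 0.09 (adjusted p = 0.0383, edgeR). Its CTX slope was 0.19 ± 0.11, and the slopes differed by 0.49 ± 0.14 (adjusted p = 0.0225, edgeR). Without the PBS library of day 1, none of these slopes passed the test, with a SPRY1 slope of 0.34 in PBS (adjusted p = 0.129, edgeR) and a SPRED3 slope of -0.22 (adjusted p = 0.468, edgeR). The slope difference of both genes was also lost without CTX 2a, 2b or day 5, with adjusted p from 0.0515 to 0.0631. The SPRED3 slope in PBS was also lost without PBS of days 3, 4 or 5 or CTX 2a, with adjusted p up to 0.0881. With the PBS library of day 0 added, SPRY2 was also called in PBS-treated SCC6, with a slope of -0.18 ± 0.05 (adjusted p = 0.0129, edgeR) in place of -0.15 ± 0.07 (adjusted p = 0.137). The CTX slopes rest on 2 libraries labelled day 2 and none labelled day 1.

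Slopes, again not adjusted for the flow cell, were called for 15.6% of genes with PBS and 20.1% with CTX in SCC6. There 28.2% of genes had slopes that differed. For SCC1 these shares were 2.45%, 4.46% and 0.617%, and for SCC25 2.23%, 1.09% and 0%, with no member called. The count of 0 genes for the slope difference in SCC25 compares with 1180 genes at an unadjusted p under 0.05 and 30 genes called by DESeq2. A straight slope does not describe SPRY2, SPRY4 and SPRED3 in PBS-treated SCC1, which were lowest at day 0, with 6.40, 43.8 and 2.39 CPM, and peaked at day 3.

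The fall of SPRY2 and SPRY4 was seen at each day that had a CTX library. In SCC6 these days start at day 2, and libraries 2a and 2b are set against the same PBS library. CTX over PBS of the same day gave ratios of 0.351 to 0.533 for SPRY2 in SCC1, 0.326 to 0.506 in SCC6 and 0.401 to 0.534 in SCC25. For SPRY4, the ratios were 0.226 to 0.323, 0.194 to 0.266 and 0.556 to 0.747. The fold was present at the earliest CTX library of each line, with SPRY4 ratios of 0.317 at day 1 in SCC1, 0.266 and 0.194 in SCC6 libraries 2a and 2b and 0.608 at day 1 in SCC25. Within a flow cell, the mean log2 difference of SPRY4 was -1.46 in SCC1 (1 PBS and 5 CTX libraries), -2.05 in SCC6 (4 and 3) and -0.71 in SCC25 (5 and 2). The matching values of SPRY2 were -1.33, -1.09 and -1.05, and that of SPRED3 in SCC1 was -1.60. The days on a shared flow cell were not the same for PBS and CTX. In SCC6, the number after the flow cell name in the labels was also split by treatment.

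With cetuximab, the order of levels within the family changed in each line, and the highest member changed in SCC1 and SCC25. SPRED2 became the highest per kb in both, at 9.40 ± 0.676 and 7.07 ± 0.529 CPM per kb, and SPRY4, the highest in both with PBS, ranked 3 in SCC1 and 2 in SCC25. In SCC6, SPRY2 stayed first at 8.62 ± 1.56 CPM per kb, beside SPRED2 at 8.25 ± 0.427, and the SDs overlapped. SPRY4 went from rank 3 to rank 4 there, behind SPRED1. As a share of the summed per-kb level of the 7 genes, SPRY4 went from 42.6% to 20.9% in SCC1, from 14.1% to 6.16% in SCC6 and from 30.9% to 26.0% in SCC25. Among transcripts named after a member, SPRY4-IT1, which is annotated as an intronic transcript of SPRY4, had 3 to 80 counts per library of days 1 to 5. It fell with SPRY4 in SCC1 (log2 fold change -1.88 ± 0.30, adjusted p = 0.000262) and SCC6 (-1.97 ± 0.39, adjusted p = 0.00336, edgeR), and reads of the 2 genes may be split uncertainly. In SCC25 its value was -0.56 ± 0.26 (adjusted p = 0.164, edgeR).

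Other genes of the pathway were taken from 3 lists of the cascade, of Sprouty and SPRED partners and of known ERK target genes. The values given for them are not adjusted for the flow cell, which in SCC1 was largely split by treatment. Of 17 listed ERK target genes, 12 of 16 tested fell in SCC1, 14 of 17 in SCC6 and 15 of 17 in SCC25, and none rose. Of all genes tested, 22.1%, 14.6% and 9.5% were called lower and 22.7%, 15.6% and 8.8% higher in the same order. The ERK target list was chosen with earlier results of these data known. The median log2 fold change of the list was -1.79, -1.32 and -0.97, against 0.02, 0.00 and 0.01 over all genes tested. The count of targets that fell was the same with DESeq2's size factors and with totals alone, except that it was 15 in SCC6 with the former. EGR1, an immediate early transcription factor, had the lowest value in SCC6 (-4.35 ± 0.24, adjusted p = 2.97e-06) and SCC25 (-2.44 ± 0.18, adjusted p = 2.32e-05, edgeR). In SCC1 it was PHLDA1, at -3.66 ± 0.24 (adjusted p = 7.73e-07, edgeR), beside EGR1 at -3.64 ± 0.31. DUSP6, a phosphatase of ERK and so another kind of feedback inhibitor, fell by 3.19, 1.99 and 1.22 on the log2 scale in SCC1, SCC6 and SCC25. DUSP5 (-2.11, -2.72 and -1.34) and DUSP4 (-2.67, -1.53 and -1.62) fell as well, as did FOS, FOSL1, MYC, IER3, ETV4 and ERRFI1 in each line. ERRFI1, which encodes the EGFR inhibitor MIG6, had -0.51 ± 0.09 in SCC1, -1.32 ± 0.16 in SCC6 and -0.97 ± 0.12 in SCC25.

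**Figure D4:**
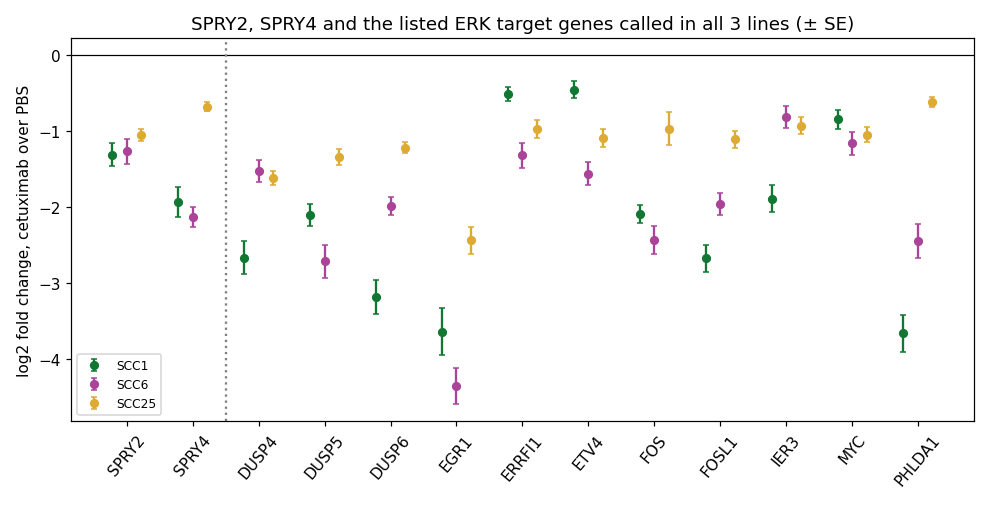
Log2 fold change, cetuximab over PBS, of SPRY2 and SPRY4 (left of the dotted line) and of the 11 listed ERK target genes called in all 3 lines, in SCC1 (green), SCC6 (purple) and SCC25 (yellow), with bars for the SE. All values lie below 0, and those of EGR1 reach -4.35.

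For the cascade itself, the counts of calls are to be read against the 44.8%, 30.1% and 18.3% of all genes called in SCC1, SCC6 and SCC25. Of 18 genes from EGFR to ERK, 5 rose and 5 fell in SCC1, 3 rose and 1 fell in SCC6 and 3 rose and 2 fell in SCC25, with median log2 fold changes of -0.04, 0.09 and -0.01. With libraries scaled by their totals alone these medians were 0.01, 0.10 and 0.04, and the counts were 6 and 4, 2 and 1, and 4 and 2. MAP2K1, which encodes the kinase MEK1, fell in each line (-0.66 ± 0.07, -0.50 ± 0.10 and -0.33 ± 0.05 in SCC1, SCC6 and SCC25). SOS2, a RAS activator, rose in each line, by 0.34 ± 0.05, 0.48 ± 0.10 and 0.42 ± 0.08. Other large values were those of GAB1, a docking protein, in SCC1 (0.60 ± 0.06) and SCC25 (0.45 ± 0.10) and of the scaffold KSR1 in SCC6 (1.95 ± 0.25, adjusted p = 0.000231, edgeR). Of 9 partners of the family, 2 rose and 2 fell in SCC1, 3 rose in SCC6 and none was called in SCC25, beside the same shares of all genes. CBL (-0.52 ± 0.06) and NEDD4 (-0.48 ± 0.06), both ubiquitin ligases, fell in SCC1. CAV1, which encodes caveolin-1, rose by 1.65 ± 0.15 in SCC6 (adjusted p = 2.22e-05, edgeR), as did the ubiquitin ligase SIAH2 by 0.60 ± 0.11.

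Across the 33 libraries, after the mean of each line was removed, SPRY2 and SPRY4 followed each other with r = 0.93 and SPRED2 followed SPRY4 with r = 0.85. SPRED3 had r = 0.75 with SPRY4, SPRY3 ran against it with r = -0.70, and SPRY1 had r = 0.13. Within SCC1, SCC6 and SCC25, over 11 libraries each, the r with SPRY4 was 0.97, 0.96 and 0.99 for SPRY2, 0.87, 0.94 and 0.43 for SPRED2, and 0.97, 0.59 and 0.42 for SPRED3. It was -0.94, -0.69 and -0.26 for SPRY3. For SPRY1 the lines differed in sign, with -0.50, 0.51 and -0.27, so the pooled value describes none of them. These are descriptions over libraries that share the treatment and the line. By the same measure over 14608 genes, the genes most like SPRY4 were PFDN2 (r = 0.971), PLK3 (0.968) and ESM1 (0.965), and those most like SPRY2 were EIF2B2 (0.957), AATF (0.957) and GFPT2 (0.948). For SPRED3 they were SEMA7A (0.924), SLC45A3 (0.905) and RGMB (0.902), and for SPRED2 ELOA (0.890), NOL9 (0.884) and ELK3 (0.879). SPRY1 had PPCS (0.831), LETMD1 (0.814) and KRT7-AS (0.812), SPRY3 had RP11-734K23.9 (0.852), RRAGB (0.838) and PLCB1 (0.831), and SPRED1 had HAUS6 (0.841), NUFIP1 (0.833) and NAA16 (0.826).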

How the data were processed

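Polyadenylated RNA of SCC1, SCC6 and SCC25 was sequenced from 33 libraries. Per the labels and the study's methods, the authors inferred transcript abundance with Salmon 0.8.2 and imported it with tximport, and the processing notes name hg19 and GRCh37. The annotation release is not given in the sources used here. The deposited values are estimated counts per gene symbol, not normalised, of which 29.2% of those above 0 are whole. They were rounded to whole numbers and tested with edgeR 4.0.16 in R 4.3.3 (filterByExpr for low counts, TMM factors, quasi-likelihood F test, two-sided, Benjamini-Hochberg adjustment over all genes tested), and a gene was called at an adjusted p under 0.05. SEs are the log2 fold change divided by the root of F. CPM used TMM factors over the 33 libraries, and log2 ratios of single libraries and correlations used a pseudocount of 0.1 CPM. DESeq2 1.42.0 was an alternative. Library totals ran from 28508758 to 80727478, so that SPRY4 rested on 178 to 5833 counts per library of days 1 to 5 and SPRY1 in SCC1 on 14 to 43.

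Treatments were compared in each line over days 1 to 5, the response was compared between lines over 30 libraries, untreated levels over 15 PBS libraries, and slopes per day with a line for each treatment. Day 0 was used only in an alternative. Other alternatives were DESeq2's size factors, totals alone, no filter, leaving out each library, the day as a block, the flow cell as a covariate, and a minimum size of 1 for the log2 fold change in addition. The labels give the day shared by a PBS and a CTX library. After removal of the treatment means, their correlation across genes was 0.0601 to 0.189 in SCC1, 0.107 to 0.221 in SCC25 and -0.0648 to 0.287 in SCC6. No pair of libraries had identical counts. The fits were tested on simulated data with 200 changed genes.

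The members and lists were chosen with earlier results of these data known. Named genes are all members, genes of a pathway list called in all 3 lines, the 2 largest changes of a list per line, and the 3 genes most like each member, of at least 1 CPM on average. Positions and sequences are from GENCODE and GRCh37, windows for comparison from RefSeq, with numpy 2.4.6, pandas 2.3.3 and matplotlib 3.10.9.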

Additional observations from a re-analysis of the deposited data

Results flagged for a closer look

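Of the 42 groups of libraries examined for a value far from the others, 1 held one, where chance gives about 1 in 20. It was SPRED3 in PBS-treated SCC25, where day 5 measured 0.642 CPM and the nearest other library 0.823 CPM.

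The response to cetuximab differed between lines for SPRY4 (adjusted p = 6.41e-06), SPRED3 (0.000128), SPRY1 (0.00212) and SPRED2 (0.0343, all edgeR). SPRY4 fell less in SCC25 than in the other lines, and was lower in 5 of 5 CTX libraries of each line than in the PBS library of the same day. With the flow cell in the fit, its difference between SCC25 and SCC1 did not pass the test (0.74 ± 0.29, adjusted p = 0.171, edgeR). SPRED3 fell on 5 of 5 days in SCC1. SPRY1 was lower in 5 of 5 CTX libraries of SCC6 than in the PBS library of the same day, and its log2 fold change in SCC1 was above 0.

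The PBS libraries of day 0 enter no main comparison of treatments, since there was no CTX library of that day. In SCC6, day 0 was above every PBS library of days 1 to 5 for SPRY2 (70.3 CPM, highest later value 56.7), SPRY4 (38.2, later 35.5) and SPRED2 (53.0, later 52.7). In SCC25 this held for SPRY2 (17.9, later 17.8), SPRY3 (2.04, later 1.74), SPRY4 (50.5, later 46.3), SPRED1 (42.5, later 36.9) and SPRED3 (1.497, later 0.895). In SCC1 it held for SPRED1 (53.1, later 52.3). Each is 1 library, so the difference has no replicate check.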

How the results depend on the processing

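SPRY2 and SPRY4 in each line, SPRED3 in SCC1 and SPRY1 in SCC6 kept their direction and their call under every alternative, except that a required log2 fold change of 1 or more in size ended the SPRY4 call in SCC25. With that requirement 3, 3 and 1 members and 1572, 1687 and 300 genes were called in SCC1, SCC6 and SCC25. The flow cell as a covariate gave 4197 genes in SCC1 and 1417 in SCC25, and ended the SPRED2 call in SCC1. The day as a block gave 7961 genes in SCC6 and changed no other call than those given beside the results. The SPRED1 call in SCC6 was lost with no filter (adjusted p = 0.141, edgeR) and with totals alone (0.0677), and the SPRED2 difference between lines with no filter (0.130) and with the flow cell (0.196). Without a filter, 1 member had slopes that differed in SCC6. The cause was not tested.

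Leaving out 1 library gave 5 to 7, 4 to 5 and 2 of 7 members called in SCC1, SCC6 and SCC25, and from 0 to 2 for the slope in PBS and for the slope difference in SCC6. It gave 2193 to 4006 genes in SCC25, and the 4 counts lowest by over 1.5 times were those without PBS of day 2 or 3 or CTX of day 4 or 5. The SPRED2 difference between lines was lost in 9 of these 30 fits (adjusted p 0.0518 to 0.0850, edgeR), and its SCC25 against SCC6 difference in 7. SPRY1 and SPRED1 in SCC1 were called without PBS of day 5 (adjusted p = 0.0324 and 0.0445, edgeR). SPRED1 in SCC1 was also called with PBS of day 0 added (-0.17 ± 0.06, adjusted p = 0.0388, edgeR).

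Values near 0 changed sign. SPRY1 in SCC1 was -0.0901 with the flow cell, and its SCC25 minus SCC1 difference was 0.21. SPRED3 in SCC25 was 0.0125 with totals alone and 0.0785 with the flow cell. The SPRED2 SCC6 minus SCC1 difference was 0.000263 with no filter. Over the fits without 1 library, SPRY1 in SCC25 ran from -0.0426 to 0.131, SPRED3 in SCC25 from -0.152 to 0.106, the SPRY1 slope under CTX in SCC6 from -0.0758 to 0.0192, the SCC6 minus SCC1 differences of SPRY2 from -0.0355 to 0.176 and of SPRED2 from -0.0769 to 0.0103, and the SPRED1 level of SCC25 against SCC6 from -0.123 to 0.00193. Counts per library limit what can be seen for SPRY1 in SCC1 and SPRED3 in SCC25.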

Other observations

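The drug's own target was among the genes that rose in SCC1. EGFR had a log2 fold change of 0.58 ± 0.07 there (adjusted p = 5.21e-05, edgeR), 0.09 ± 0.09 in SCC6 (adjusted p = 0.464) and 0.09 ± 0.04 in SCC25 (adjusted p = 0.145). NF1, the RAS inactivator that SPRED proteins recruit, had 0.08 ± 0.06, 0.07 ± 0.11 and 0.14 ± 0.07 in the same order, and none of these passed the test. Both genes were chosen after their values were seen, and the values are not adjusted for the flow cell, which in SCC1 was largely split by treatment. Of the listed ERK target genes not called in all 3 lines, CCND1, which encodes cyclin D1, fell in SCC6 (-0.55 ± 0.09, adjusted p = 0.000940, edgeR) and had 0.09 ± 0.14 in SCC1 and -0.07 ± 0.05 in SCC25. ETV5, an ETS factor, fell in SCC25 (-0.30 ± 0.08, adjusted p = 0.0191, edgeR) and had -0.35 ± 0.28 in SCC6 and 0.11 ± 0.06 in SCC1, neither of which passed the test. DUSP7 fell in SCC6 (-0.67 ± 0.18) and SCC25 (-0.51 ± 0.11) and had -0.13 ± 0.11 in SCC1. ETV1 fell in the same lines, with -1.17 ± 0.32 and -0.64 ± 0.16, and had 0.05 ± 0.14 in SCC1. EPHA2 fell in SCC1 (-1.69 ± 0.22) and SCC25 (-0.64 ± 0.12) and had -0.49 ± 0.17 in SCC6 (adjusted p = 0.0525, edgeR). EPHA4 had 0.13 ± 0.23 in SCC6 and -0.12 ± 0.09 in SCC25, and was not tested in SCC1. Tests of a difference between the lines are not given for these genes, and a call in some lines only does not show one.

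Markers of squamous epithelium also moved. Their summed level was 1312 to 2504 CPM with PBS and 6014 to 9524 CPM with CTX in SCC1, where 5 of 6 rose and 1 fell. In SCC6 it was 1299.7 to 1984 against 1763 to 2648 CPM, with 3 higher and 1 lower, and in SCC25 8962 to 13343 against 11093 to 13172 CPM, with 2 higher.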
